A study of Mus musculus with 2 samples.

Results

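Purinergic signalling genes were described in cultures of primary microglia, the macrophages that live in brain and spinal cord. The set held 10 genes: 5 receptors for nucleotides, 3 receptors for adenosine and 2 cell-surface enzymes that break nucleotides down. The genes were named by symbol, with earlier results of these data known. All 10 had 1 row each in a table of 26607 gene rows. The table compared 1 library of cells with a control vector, by its label, and 1 library of cells with a vector for overexpression of Per2. Per2 encodes a repressor of the circadian clock. The labels name no promoter, no age or sex of the source animals and no number of cultures per library, and both cultures carried a vector. The labels give the organism as mouse, whereas the genome build and the gene identifiers are of rat.

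Cells release ATP and other nucleotides when they are stressed or damaged, and neighbouring cells read them through P2 receptors. P2X receptors are cation channels opened by ATP, and P2Y receptors are G-protein-coupled receptors for ATP, UTP, ADP, UDP or UDP-sugars. On the cell surface CD39, encoded by Entpd1, cuts ATP and ADP to AMP, and CD73, encoded by Nt5e, cuts AMP to adenosine, which acts on its own G-protein-coupled receptors. In microglia these receptors are known for process movement towards injury, phagocytosis and the release of cytokines.

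With 1 library per group there was no replicate and no test. No value carries an SD, and whether the groups overlap cannot be assessed. Levels are FPKM, read fragments corrected for transcript length and for the size of the library, with the control-labelled value first. The log2 ratio is that of the Per2-labelled over the control-labelled library after adding 1 to each FPKM, a scale that understates the differences of low genes. A gene counted as at least 2-fold apart at a log2 ratio of 1 or more, or -1 or less, among the 12369 rows with a mean of at least 1 FPKM. Per2 itself (ENSRNOG00000020254) went against the labels, with 6.90 against 0.927 FPKM, so each direction below refers to the libraries as labelled.

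Of the 10 genes, 8 had the higher deposited value in the control-labelled library and 2, the adenosine receptors Adora2a and Adora2b, in the Per2-labelled library. The mean of 1 FPKM was passed by 7 genes, and P2rx7, P2ry14 and Adora3 were under it. These 3 are among the 8, and no difference can be read at their levels. Of the 7 genes, 1 (Adora2b) was 2-fold or more higher, 0 were 2-fold or more lower and 6 lay between. Across all compared rows, 2.19% were higher by that size and 5.93% lower, 8.12% in all. A single call among 7 genes is too few to set apart from that share. The median log2 ratio of the 7 genes was -0.49, beside -0.18 for all rows. Of the 7 genes 5 lay below 0, beside 64.1% of all rows.

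**Figure D1:**
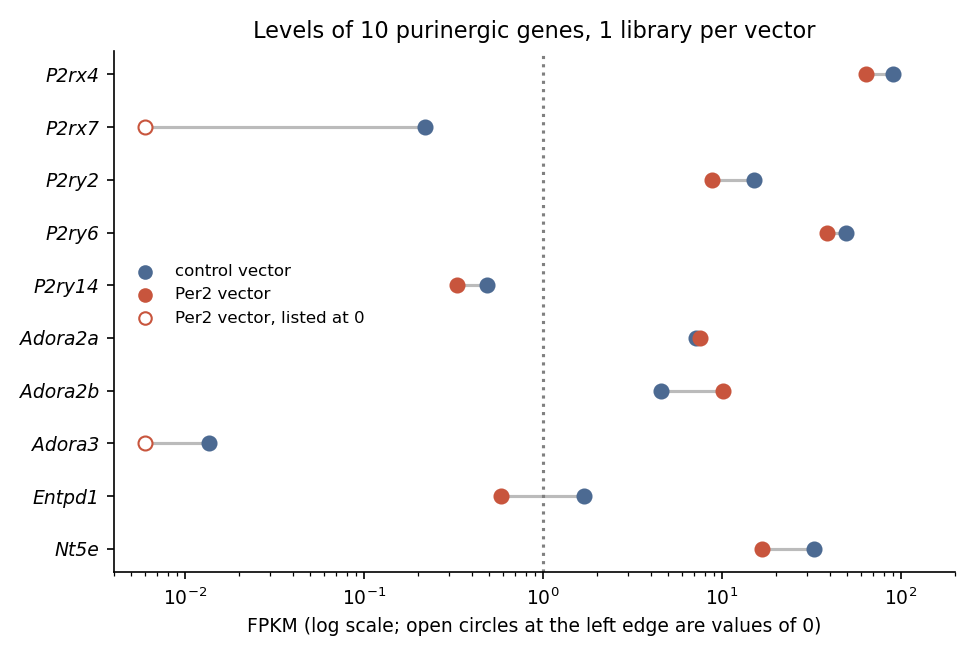
FPKM of the 10 genes (log axis) in the control-labelled library (blue) and the Per2-labelled library (red), with a dotted line at 1 FPKM; open circles at the left edge are values listed at 0. P2rx4 and P2ry6 are the highest receptors in both libraries, and Adora2b is the gene whose red point lies furthest to the right of its blue point.

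The P2X pair were far apart in level. P2rx4 (ENSRNOG00000001300), an ATP-gated channel known from spinal microglia after nerve injury, had 90.3 against 63.9 FPKM and was the most abundant of the 10 in both libraries. Its log2 ratio was -0.49, which placed 25.6% of all compared rows below it. P2rx7 (ENSRNOG00000001296), the ATP-gated channel that triggers the inflammasome and interleukin-1 beta release in macrophages, had 0.219 FPKM in the control-labelled library and was listed at 0 in the other. P2rx7 is usually counted among the microglial ATP receptors, but at this level no difference between the libraries can be read from it.

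Both abundant P2Y receptors were lower in the Per2-labelled library by less than 2-fold. P2ry6 (ENSRNOG00000019270), the UDP receptor known for microglial phagocytosis, had 49.5 against 38.6 FPKM, a log2 ratio of -0.35. P2ry2 (ENSRNOG00000019283), a receptor for ATP and UTP, had 15.1 against 8.80 FPKM, a log2 ratio of -0.71, and 13.9% of all compared rows lay below it. Within a library, where the scaling of the libraries cancels, P2ry6 was 3.29 times as abundant as P2ry2 in the control-labelled library and 4.39 times in the other. P2ry14 (ENSRNOG00000013872), the receptor for UDP-glucose, had 0.484 against 0.330 FPKM and was under the filter.

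The adenosine receptors were the class with a higher summed level in the Per2-labelled library. Adora2b (ENSRNOG00000002922), the low-affinity receptor that raises cyclic AMP, had 4.59 against 10.2 FPKM. The Per2-labelled value was 2.22 times the other in the deposited values, the log2 ratio was 1.00, and 2.17% of all compared rows had a higher one. This lay just past the 2-fold limit, and the call was lost with a pseudocount of 5 (0.66) or with each library rescaled to the same sum (0.86). Adora2a (ENSRNOG00000001302), the high-affinity receptor that also raises cyclic AMP, had 7.20 against 7.58 FPKM. Its log2 ratio of 0.06 became -0.12 on the rescaled values, so its direction depended on the scaling. Adora2a was therefore the more abundant of the pair in the control-labelled library and Adora2b in the Per2-labelled one. The ratio of Adora2b to Adora2a, which no scaling of the libraries alters, was 0.637 against 1.34. Adora3 (ENSRNOG00000050743), which lowers cyclic AMP, had 0.0136 FPKM in the control-labelled library and was listed at 0 in the other.

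PER2 protein is known to act through the CLOCK-BMAL1 dimer, which binds the E-box CACGTG, so that hexamer was looked for in the mouse promoters of the genes. RefSeq windows (GRCm38.p6) from 250 bases before to 50 bases after the annotated start were at hand for 8 of the 10 genes, and P2ry2 was the 1 gene of the 8 that held it. The hexamer reads the same on both strands and occurs in 7.15% of all 32851 windows and, counted per gene, in 8.09% of genes with a window. P2ry2 has 2 overlapping windows, both with the hexamer. The window printed here (chr7:101011949-101012248, minus strand) has it at position -18 from its start, in capitals. The window of Adora2b (chr11:62248734-62249033, plus strand), the gene past 2-fold, is printed beside it and holds none. The windows are of mouse while the table's identifiers are of rat, and a match is a description of letters, not a binding site.
P2ry2: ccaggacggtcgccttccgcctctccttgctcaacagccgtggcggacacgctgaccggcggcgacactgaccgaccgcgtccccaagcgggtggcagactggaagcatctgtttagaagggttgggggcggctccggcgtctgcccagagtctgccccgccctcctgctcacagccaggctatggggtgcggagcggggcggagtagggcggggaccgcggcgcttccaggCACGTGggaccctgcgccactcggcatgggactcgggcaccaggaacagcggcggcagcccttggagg
Adora2b: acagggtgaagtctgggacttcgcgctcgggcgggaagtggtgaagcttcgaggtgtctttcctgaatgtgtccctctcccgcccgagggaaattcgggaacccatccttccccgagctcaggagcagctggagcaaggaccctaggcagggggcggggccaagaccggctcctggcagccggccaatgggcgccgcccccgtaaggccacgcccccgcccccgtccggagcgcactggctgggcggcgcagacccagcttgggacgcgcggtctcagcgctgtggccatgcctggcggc

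Both ectonucleotidases were lower in the Per2-labelled library and lay between the limits. Nt5e (ENSRNOG00000011071), which makes adenosine from AMP, had 32.7 against 16.8 FPKM. The control-labelled value was 1.94 times the other, and the log2 ratio of -0.92 was the lowest of the 7 genes, just short of the limit of -1. Of all compared rows 7.66% lay below Nt5e. Entpd1 (ENSRNOG00000014574), which acts before it in the same chain, had 1.70 against 0.584 FPKM. The control-labelled value of Entpd1 was 2.91 times the other, but its log2 ratio on FPKM + 1 was -0.77 because both values are low. Entpd1 passed the filter of 1 FPKM only through its control-labelled value. Its direction is therefore not separate from the filter and is given as a description only. Entpd1 was past the limit with a pseudocount of 0.1 (-1.40) and on the rescaled values (-1.02), as was Nt5e on the rescaled values (-1.13). Nt5e was 19.2 times as abundant per length as Entpd1 in the control-labelled library and 28.8 times in the other. Both figures rest on the low values of Entpd1.

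**Figure D2:**
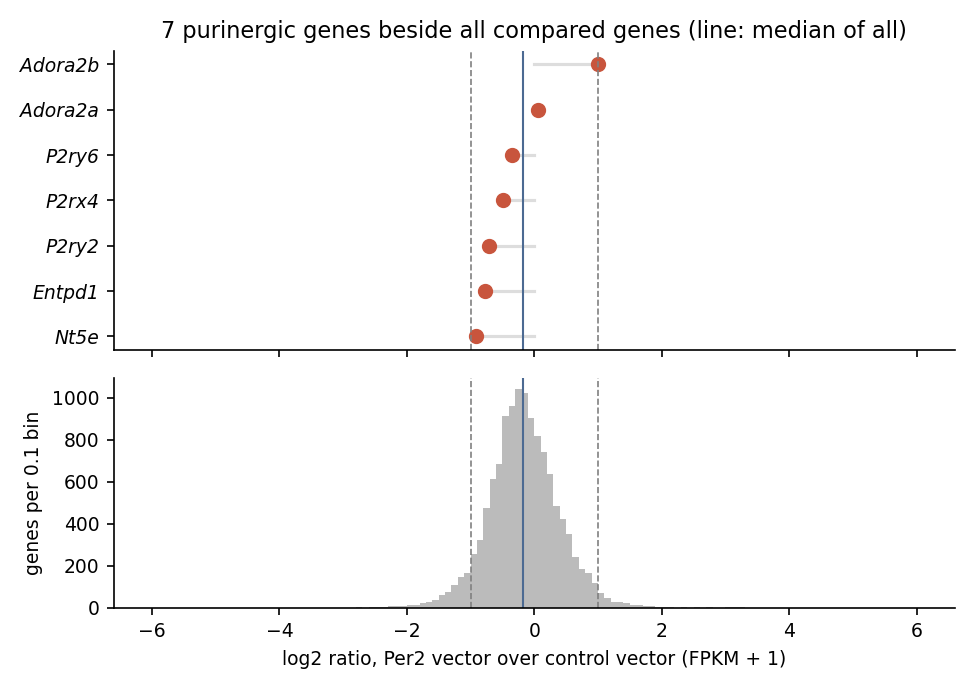
Log2 ratios of the 7 genes past the filter of 1 FPKM (top) above the distribution of all 12369 compared rows (bottom); dashed lines mark 2-fold and the blue line the median of all rows, -0.18. Adora2b, at 1.00, lies on the right dashed line, and 5 of the 7 genes lie to the left of the blue line.

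The adenosine-making enzyme and the low-affinity adenosine receptor thus lay on opposite sides of the distribution. Nt5e was 7.12 times as abundant per length as Adora2b in the control-labelled library and 1.65 times in the Per2-labelled library. Of the summed FPKM of the 10 genes, the 3 adenosine receptors held 5.85% in the control-labelled and 12.1% in the Per2-labelled library. The 2 ectonucleotidases held 17.0% and 11.9%. The P2X receptors (44.9% and 43.5%) and the P2Y receptors (32.2% and 32.5%) held similar shares in both. These pairs and shares were chosen after the values had been seen. They were not adjusted for the trend with transcript length given below. By mouse transcripts Nt5e, at 3995 nt, is longer than Adora2b, at 1845 nt.

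The order of levels was P2rx4, P2ry6, Nt5e, P2ry2, Adora2a, Adora2b and Entpd1 in the control-labelled library. In the Per2-labelled library Adora2b followed Nt5e, ahead of P2ry2 and Adora2a, while P2rx4, P2ry6, Nt5e and Entpd1 held the same places. Without replicates, neighbours in that order cannot be separated from the spread between cultures.

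Transcript length moved with the ratio of the libraries. Lengths were those of the longest coding transcript that the mouse gene of the same symbol has. Over 10139 compared rows with a length, Spearman's rho between log2 ratio and length was -0.50, a description across genes, which are not independent replicates. The 7 genes ranged from 1845 nt (Adora2b) to 4221 nt (Entpd1), so the gene with the highest ratio had the shortest transcript. Once the trend was removed, which also recentres the ratios, Adora2b had 1.02 and was again at least 2-fold higher, while 0 were 2-fold or more lower. On that scale 1.35% of rows were higher by this size and 2.4% lower, 3.75% in all. Adora2a then had 0.25, P2rx4 -0.30, P2ry6 -0.30, Entpd1 -0.40, P2ry2 -0.48 and Nt5e -0.57. The 2 ectonucleotidases moved furthest with this step. Of the 7 genes 5 lay below 0 before and after it, beside 64.1% and 50.7% of rows in turn. So few genes cannot be set apart from these shares.

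**Figure D3:**
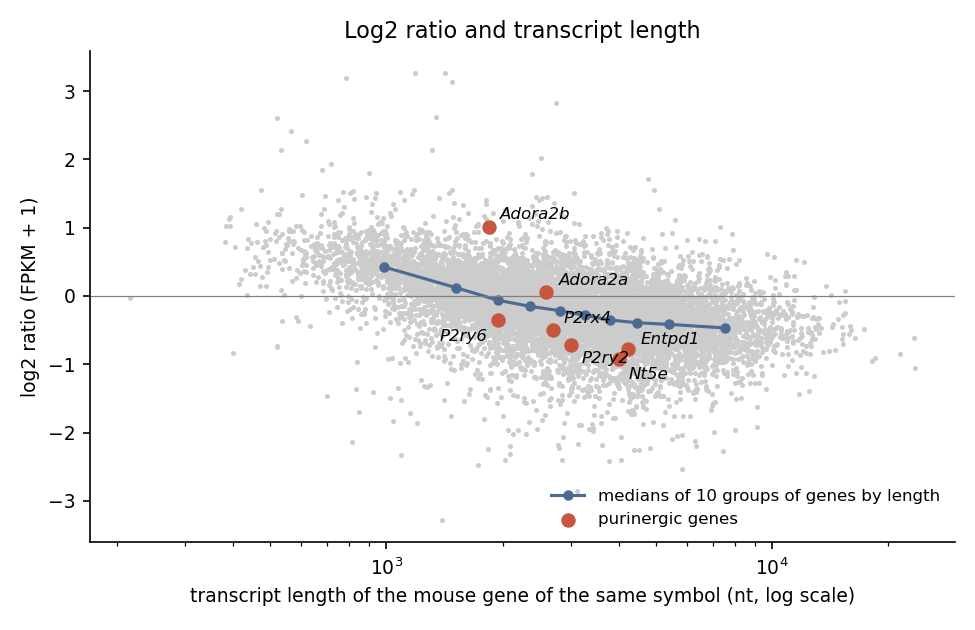
Log2 ratio of each compared row with a length (grey) against the transcript length of the mouse gene (log axis), with the medians of 10 equal groups of rows by length (blue) and the 7 genes (red). The medians go from 0.43 for the shortest group to -0.47 for the longest; Adora2b lies above the blue line at its length, and Nt5e, Entpd1 and P2ry2 lie below it.

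The cultures held more than microglia by their markers, and these lists moved with the libraries too. Of 16 microglia and macrophage markers, 14 were compared, 5 of them past 2-fold in the lower direction, beside 5.93% of all rows, and 0 in the higher, and the summed level was 3627 against 3200 FPKM. Of these 14, 12 lay below 0 and 2 above. The most abundant, Tyrobp, was 1 of the 2 above and made up 1076 of 3627 and 1364 of 3200 FPKM. The sum therefore understates the fall of the other markers. Aif1 had 579 against 491 FPKM, whereas Cx3cr1 was listed at 0 in both libraries. Summed levels were 439 against 198 FPKM for astrocyte markers (Gfap 56.4 against 17.8, with 5 of 10 compared at least 2-fold lower). Without the length trend 2 of the 10 astrocyte markers were lower by that size, and 4 of the 14 of microglia and macrophages. The share of all rows on that scale was 2.4%. Fibroblast and pericyte markers summed to 956 against 789, with Col1a1 at 138 against 117 and the most abundant, Acta2, at 359 against 367. Of the 8 compared, 6 lay below 0 and 2 above, and 4 lay on each side with the length trend removed. Sums were 74.8 against 58.4 FPKM for the oligodendrocyte lineage, with 3 of 7 compared at least 2-fold lower, and 40.3 against 27.6 for neurons. Both sums were mostly 1 gene, Cnp with 38.5 against 37.4 FPKM and Stmn2 with 27.6 against 16.0. Below 0 lay 6 of the 7 compared markers of the oligodendrocyte lineage and 3 of the 4 of neurons. Without the length trend 1 of the 7 markers of the oligodendrocyte lineage was at least 2-fold lower. The sums of 3 further lists were also mostly 1 gene each. Endothelial markers summed to 60.2 against 63.5, of which Esam held 54.2 against 59.2 while Flt1 had 3.57 against 2.86. Monocyte and neutrophil markers summed to 683 against 758, of which S100a8 held 677 against 753 while S100a9 had 1.79 against 0.688. Lymphocyte markers summed to 18.7 against 5.09, of which Cd8a held 16.0 against 2.81 while Lck had 2.67 against 2.28. Listed at 0 in both libraries were Cldn5 of endothelium, Rbfox3 and Slc17a7 of neurons, Mpo of neutrophils and Cd3d, Cd3e and Ms4a1 of lymphocytes. The part of these cells in the purinergic values was not tested, and in such bulk RNA fewer cells of a type and less RNA per cell cannot be told apart.

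The other purinergic receptors were mostly scarce. Of the other P2X receptors P2rx5 passed the filter, with 1.52 against 2.69 FPKM. P2rx1 (0.271 against 0.361), P2rx3 (0.274 against 0.0942) and P2rx6 (0.0646 against 0.109) were under it, and P2rx2 was listed at 0 in both libraries. Gpr34, a lysophosphatidylserine receptor related to the P2Y family and typical of microglia, had 11.5 against 1.73 FPKM, a log2 ratio of -2.20. P2ry1, an ADP receptor, had 1.82 against 0.623 FPKM (-0.80). The ADP receptors P2ry12 (0.650 against 0.0802) and P2ry13 (0.597 against 0.0556) were under the filter although P2ry12 is a defining microglial receptor. P2ry4 (0.151 against 0) and P2ry10 (0.178 against 0.0810) were under it too, and Gpr17 was listed at 0 in both libraries. Adora1, which lowers cyclic AMP, had 3.59 against 2.28 FPKM (-0.49, and -0.08 with the length trend removed), so Adora2b was the adenosine receptor past 2-fold among the 3 that were compared.

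Of the 70 further purinergic genes with a row, 48 were compared, of which 4 were 2-fold or more lower and 0 higher by that size. That is 8.33%, near the 8.12% of all rows. Their median log2 ratio was -0.23, beside -0.18 for all rows, and 0.03 with the length trend removed. The 4 were Gpr34, Enpp5, Gja1 and Lrrc8a. Gpr34 was counted for its relation to the P2Y family. It is also 1 of the 5 microglia and macrophage markers past 2-fold, so the 2 lists are not separate observations of it.

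Among 14 compared ectonucleotidases and related enzymes besides Entpd1 and Nt5e, 9 lay below 0 and 5 above, a share like the 64.1% of all rows below 0. Of the 14, 1 was at least 2-fold lower, which is near the 5.93% of all rows. This was Enpp5, of the nucleotide pyrophosphatase family, with 20.0 against 4.95 FPKM (log2 ratio -1.82, and -1.65 with the length trend removed). The most abundant were Bst1 (71.2 against 101.9), Enpp3 (63.6 against 37.2), Cd38 (23.4 against 11.9) and Cant1 (15.3 against 19.3). Cd38 and Bst1 encode related enzymes that consume NAD, and they lay on opposite sides of 0 (-0.93 and 0.51). Enpp3, which hydrolyses extracellular ATP, was more abundant per length than Entpd1 in both libraries.

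Enzymes that clear or salvage adenosine and other nucleosides lay on both sides of 0. Of 15 compared, 6 lay below 0 and 9 above, and the median was 0.07. None (0) was past 2-fold, beside 8.12% of all rows, a share at which few calls would fall among 15 genes. The lowest was Nt5c2, a cytosolic nucleotidase, with 35.7 against 21.8 FPKM (-0.69), and the highest Uck2, a uridine-cytidine kinase, with 11.6 against 16.8 (0.50), both named after their values were seen. Pnp, which splits inosine and guanosine, had 398 against 385 FPKM, Hprt1 of purine salvage 139 against 163 and Ahcy 47.9 against 49.4. Ada and Adk, named here for their role since they remove adenosine itself, had 16.4 against 17.7 and 28.4 against 26.8 FPKM. The signs of differences as small as those of Pnp, Ahcy, Ada and Adk depend on the scaling of the libraries. Of the nucleoside transporters 3 were compared, too few to read a count from. Slc28a2, a sodium-coupled importer of purine nucleosides, had 165 against 107 FPKM, Slc29a3 13.6 against 13.8 and Slc29a1, the equilibrative transporter of the plasma membrane, 5.25 against 7.55.

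Of 12 compared channels and carriers through which nucleotides can leave the cell, 11 lay below 0, beside 64.1% of all rows, and 2 were at least 2-fold lower, beside 5.93%. With the length trend removed 7 lay below 0 and 5 above, beside 50.7% of rows below 0 on that scale. The 2 were Gja1, connexin 43, with 163 against 74.9 FPKM (-1.11), and Lrrc8a, the essential subunit of the volume-regulated anion channel, with 6.84 against 2.90 (-1.01). With the length trend removed both were under 2-fold (-0.86 and -0.63), and the median of the 12 was -0.09 instead of -0.38. Gja1 also counts in the astrocyte list, as 163 of 439 FPKM in the control-labelled and 74.9 of 198 in the Per2-labelled library. The fall of Gja1 and that of the list are therefore not separate observations. Gjb2 had 84.2 against 49.4 FPKM, Vdac1 73.0 against 54.9, Calhm2 18.1 against 16.4 and Lrrc8d 13.6 against 9.54.

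**Figure D4:**
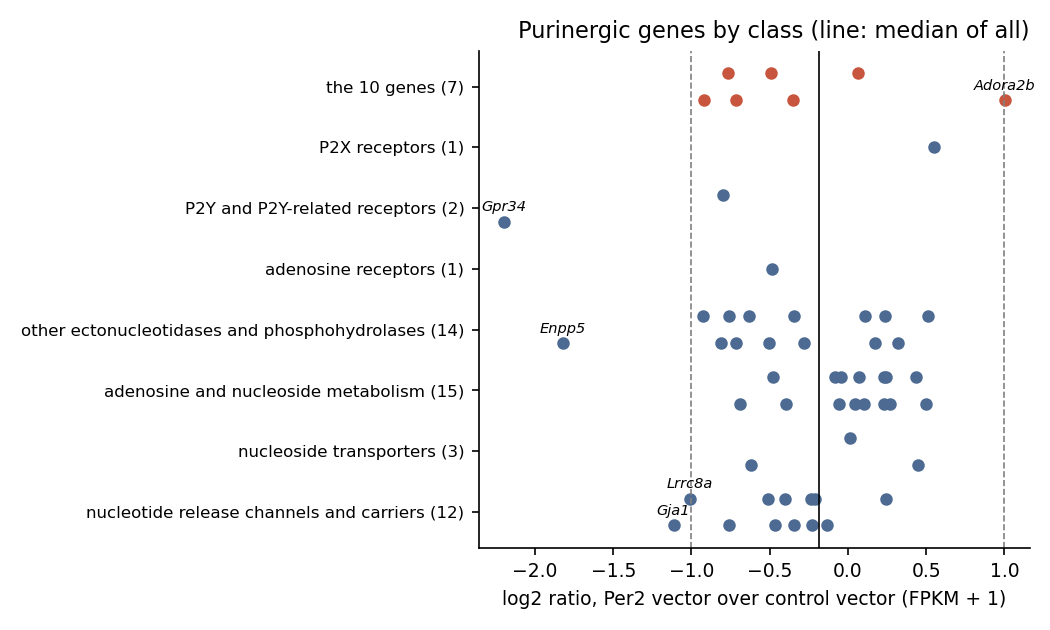
Log2 ratio of each compared purinergic gene by class, the 7 genes in red and the other 48 in blue, with the number of genes per class in brackets; points are offset vertically for legibility only. Dashed lines mark 2-fold, and the genes past them are named: Adora2b on the right, and Gpr34, Enpp5, Gja1 and Lrrc8a on the left.

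Log2 ratios were compared over the 9 settings used for scaling, pseudocount, filter, shared symbols and length. A pseudocount, a filter or the summing of shared symbols cannot turn the sign of these genes, so 3 settings bear on direction: rescaling, centring and removal of the length trend. In these 3, P2rx4, P2ry2, P2ry6, Nt5e and Entpd1 lay below 0 and Adora2b above, while Adora2a was below 0 after rescaling. The log2 ratio ranged from 0.66 to 1.19 for Adora2b and from -1.13 to -0.57 for Nt5e. Scaling also moved the whole distribution: the median of all rows was -0.18 as deposited, -0.37 with each library rescaled to the same sum and 0.01 after centring on the median of ratios. The median of the 7 genes was -0.49, -0.70 and -0.30 in turn, since such a shift moves all genes about alike. Of all 2-fold calls, 27.0% were higher in the Per2-labelled library as deposited, 11.9% after rescaling and 55.2% after centring.

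**Figure D5:**
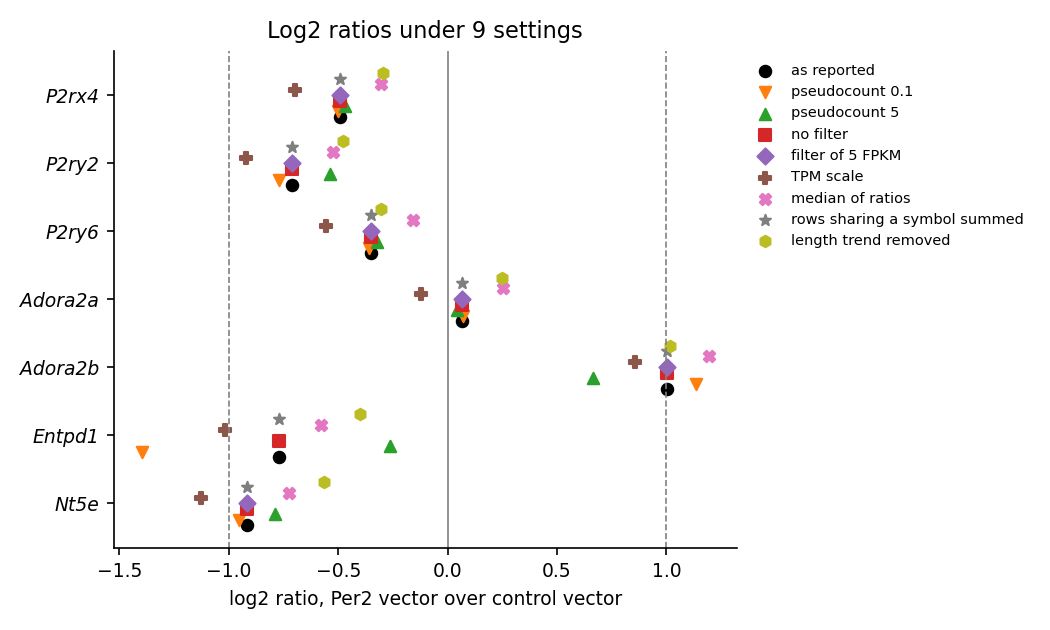
Log2 ratio of each of the 7 genes (horizontal axis) under each of the 9 settings (symbols; TPM scale is the rescaling to the same sum), with dashed lines at 2-fold. Adora2a has 1 symbol left of 0, at -0.12; Adora2b spans 0.66 to 1.19, and Entpd1 reaches -1.40 with the pseudocount of 0.1.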

How the data were processed

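Poly(A)-selected RNA of 2 cultures was sequenced, 1 library per vector. The authors deposited FPKM values, 1 per gene and library. HISAT2, StringTie, DESeq2, edgeR and the rat build Rnor_6.0 are named in the submitters' processing notes, with no version, order or setting given in the sources used here. The labels' protocols name no strand marking, so overlapping genes on opposite strands cannot be told apart. Depth is unknown: 1286 genes lay between 0 and 0.3 FPKM in each library, and at most 6 of them shared 1 ratio between the libraries (to 3 decimals), so the worth of 1 read could not be read off. FPKM summed to 659696 in the control-labelled and 760286 in the Per2-labelled library.

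From the deposited FPKM values, log2 ratios were computed with a pseudocount of 1 over the 12369 rows with a mean of at least 1 FPKM. With 1 library a group there was no test, and a log2 ratio of 1 or more, or -1 or less, took its place. The trend with length was a lowess fit on log2 length (span 0.3) of GENCODE M21 mouse transcripts, matched by symbol for 82.0% of compared rows. The fit was tested on simulated data with a straight trend, genes of at least 5 FPKM and planted changes far past the limit. That test does not bear on calls near the limit. Alternatives were pseudocounts of 0.1 and 5, no filter or 5 FPKM, rescaling to a sum of 1000000, centring on the median of ratios, summing rows of 1 symbol, and removing the length trend. Python 3.11.15, pandas 2.3.3 and statsmodels 0.14.6 were used.

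The 10 genes and the lists of other purinergic genes and cell markers were chosen with earlier results of these data known. Named genes were the 10, Per2, all other P2 and adenosine receptors, the genes past 2-fold and up to 4 abundant ones of each other purinergic list, and abundant markers or markers listed at 0. Some genes of these lists count in them but are not reported here by name. No gene was named for a like pattern, since 2 libraries give 1 ratio per gene.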

Additional observations from a re-analysis of the deposited data

How the results depend on the processing

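No paired analysis was possible because each group held 1 library, and for the same reason no library could be left out. Of the alternatives, the pseudocounts and the rescaling changed which of the 10 genes were past 2-fold. With a pseudocount of 0.1, Entpd1 had a log2 ratio of -1.40 and 1 of the genes was at least 2-fold lower. With a pseudocount of 5, Adora2b had 0.66 and 0 were at least 2-fold higher. Rescaled to the same sum, Adora2b had 0.86, Adora2a -0.12, Entpd1 -1.02 and Nt5e -1.13, so 0 were at least 2-fold higher and 2 lower. The median of the genes stayed between -0.70 and -0.30. Entpd1 has no value with the filter of 5 FPKM.

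Of the other purinergic genes, 7 were at least 2-fold lower after rescaling and 2 after centring or with the length trend removed, against 4 as reported, and 0 were higher in any setting. Across all rows, 271 were at least 2-fold higher and 733 lower as reported. The counts were 413 and 1304 with a pseudocount of 0.1, 120 and 164 with a pseudocount of 5, and 533 and 433 after centring. With the length trend removed they were 137 and 243. Lower rows numbered 366 with the filter of 5 FPKM and 1400 after rescaling. The cause of these moves was not tested. Depth is unknown, so values below 1 FPKM carry no stated precision. Such are those of P2rx7, P2ry14 and Adora3, and that of Entpd1 in the Per2-labelled library.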

Other observations

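The neighbours of the 10 genes were looked up by name in the mouse RefSeq annotation (GRCm38.p6), since the table gives no positions, and they were picked out after their values had been seen. Zswim7, which lies next to Adora2b there, had 4.78 against 11.2 FPKM, a log2 ratio of 1.08, close to the 1.00 of Adora2b. With the length trend removed Zswim7 had 0.53 and Adora2b 1.02. Specc1, on the other side of Adora2b, had 8.50 against 4.71 FPKM. Snx14, next to Nt5e, had 7.76 against 3.28 FPKM (-1.03), and Tbx18, on its other side, 9.42 against 7.85 (-0.24). Fchsd2 and Arhgef17, which flank the adjacent P2ry2 and P2ry6, had log2 ratios of 0.05 and -0.55.

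In mouse P2ry12, P2ry13 and P2ry14 lie in 1 cluster, and P2ry14 overlaps Med12l. All of them were under 1 FPKM in both libraries, with Med12l at 0.323 FPKM in the control-labelled library and listed at 0 in the other. P2rx4 overlaps Camkk2 in mouse. Camkk2 had 3.04 against 3.76 FPKM, far under P2rx4 in both libraries and on the other side of 0.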
